A study of Mus musculus with 39 samples.

Results

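The 10 genes described here (Mgst1, Ldha, Slc16a1, Hk1, Hk2, Rest, Igfbp4, Cxcl12, Oat and Acot7) belong to the genes that beta cells normally keep low, sometimes called disallowed genes. They were chosen by symbol, as probe sets annotated with that gene symbol and no other, and all 10 were among the 19938 genes measured. For 9 of them the array held 1 such probe set, and Hk1 had 2. The other-tissue levels that would test the description "kept low" were not analysed here, since every array was of islets.

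Pancreatic beta cells release insulin when glucose metabolism raises their ATP, and that coupling relies on sending pyruvate into mitochondria. Genes that would let lactate or pyruvate from the blood drive the same coupling, or that would phosphorylate glucose at low concentrations, are therefore weakly expressed in beta cells. The transcriptional repressor REST, which silences neuronal genes in most tissues, is likewise absent from mature beta cells, and islet-repressed gene lists from tissue comparisons in mouse also contain Mgst1, Igfbp4, Cxcl12, Oat and Acot7.

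RNA of isolated islets was hybridized to 39 Affymetrix Mouse Gene 1.0 ST arrays, 1 per biological replicate, in 10 groups. Pdx1-creLate mice (4 arrays) carry a Cre transgene driven by the Pdx1 promoter, a line known to contain a human growth hormone minigene, and their wild-type control littermates (4 arrays) came from the same backcross, at generation N8. Both groups were not pregnant. The other groups were wild-type C57bl6/J mice that were non-pregnant females (4 arrays), at pregnancy day 3.5 (3 arrays), at day 6.5, 9.5, 12.5, 15.5 or 18.5 (4 arrays each), or lactating at 10 days post partum (4 arrays). The labels used here give no age for any group and no sex for the transgenic mice and their littermates. Levels are log2 signals after robust multi-array average (RMA), carried to 1 decimal, so single arrays are resolved only to a step of 0.1. No detection calls came with the values, and precision is limited by how many arrays each group had.

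Array medians lay between 5.8 and 6.0. The tissue label was checked with Ins2, an insulin gene, which read 12.4 to 12.7 on every array except non-pregnant replicate 1, at 11.9. A difference is called when limma's adjusted p (Benjamini-Hochberg over the 19938 genes) was under 0.05, with standard errors (SE) for differences and standard deviations (SD) for levels. Islets are a mixture, so fewer cells of a type and less RNA per cell cannot be told apart.

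**Figure D1:**
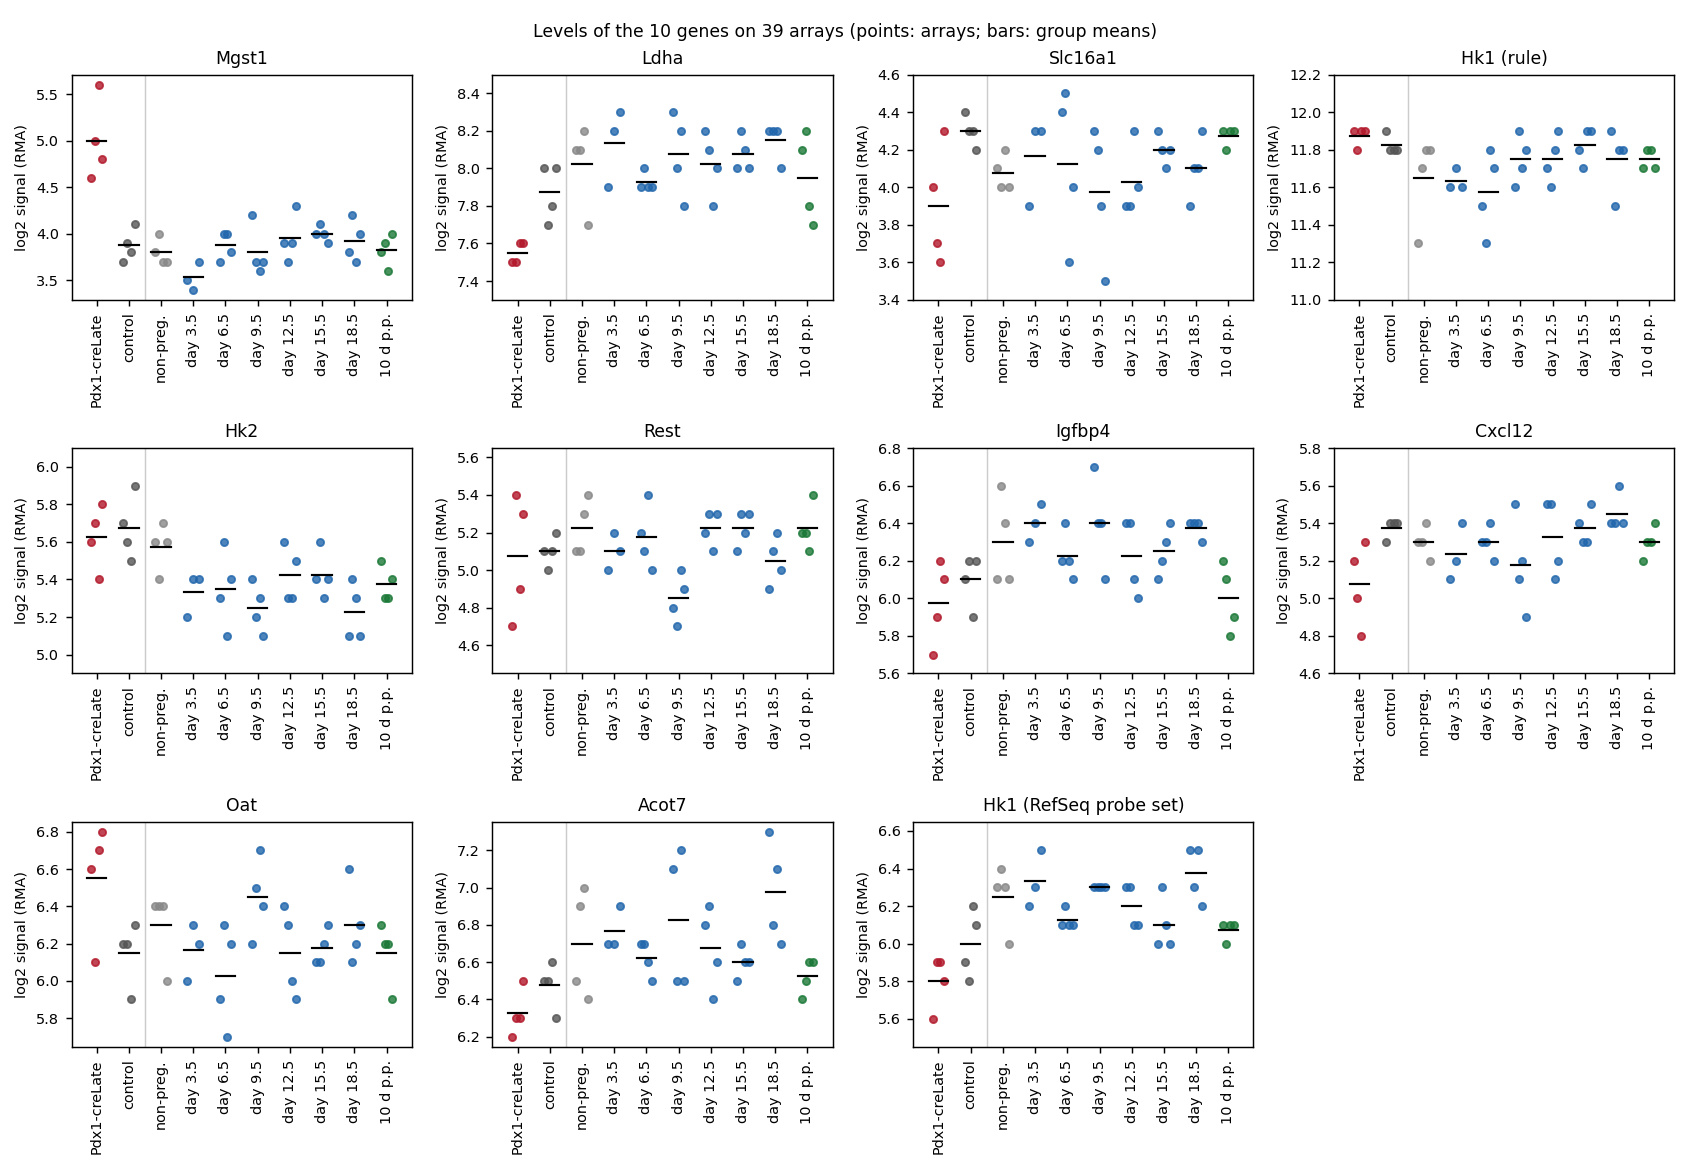
Log2 RMA signal (vertical axis) of the 10 genes, with Hk1 in both of its probe sets, on each array of the 10 groups (horizontal axis). Points are arrays and bars are group means. The 4 Pdx1-creLate arrays of Mgst1 lie at 4.6 to 5.6, above all the others, and those of Ldha at 7.5 to 7.6, below all the others.

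Mgst1, which encodes a membrane-bound glutathione transferase that conjugates and detoxifies electrophiles and lipid peroxides, lies on chromosome 6. RefSeq gives 2 start sites, and their windows (250 bases before to 50 after the start, GRCm38.p6, plus strand) are shown because it was the only member called in the transgenic islets. Capitals mark matches on either strand to TGACNNNGC, the core of the antioxidant response element through which oxidant-responsive factors act, in the first window, and to TTCNNNGAA, the motif of STAT5, which acts downstream of prolactin and growth hormone receptors, in the second.
Mgst1, chr6:138140277-138140576: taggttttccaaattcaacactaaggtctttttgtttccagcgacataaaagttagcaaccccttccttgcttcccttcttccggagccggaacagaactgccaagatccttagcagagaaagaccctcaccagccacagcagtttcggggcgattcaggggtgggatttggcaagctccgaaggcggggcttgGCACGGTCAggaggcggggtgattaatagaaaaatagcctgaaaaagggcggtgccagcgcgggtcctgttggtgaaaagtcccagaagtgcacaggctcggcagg
Mgst1, chr6:138141337-138141636: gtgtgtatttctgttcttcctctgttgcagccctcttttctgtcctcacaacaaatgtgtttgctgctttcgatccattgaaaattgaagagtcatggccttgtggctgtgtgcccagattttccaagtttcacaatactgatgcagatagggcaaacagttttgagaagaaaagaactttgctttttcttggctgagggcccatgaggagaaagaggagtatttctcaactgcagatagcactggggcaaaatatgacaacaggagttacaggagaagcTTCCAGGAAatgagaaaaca
Each of these windows held 1 match. Of the 32851 windows of the same length in the RefSeq table, 12.4% held TGACNNNGC and 8.3% held TTCNNNGAA. These matches are descriptions of the letters and not evidence of binding.

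Pdx1-creLate and control islets were compared to see which genes differ in the transgenic line in the absence of pregnancy. Of the 10 genes 1 rose, Mgst1, and none fell, against 6.59% of all genes called (2.86% higher and 3.72% lower). Mgst1 read 4.6, 5.0, 5.6 and 4.8 in Pdx1-creLate islets, against 3.7, 3.9, 3.8 and 4.1 in control islets. Every transgenic array was above every control array, while the groups did not overlap for 9.15% of all genes and did so in this direction for 3.73%. The log2 difference was 1.13 ± 0.17 (SE, 95% interval 0.76 to 1.49), a fold of 2.18, with a limma adjusted p of 0.000708. All control arrays lay below 4.93, the mean level under which the dimmest 25% of genes fell, and their signal over background is not known, so the fold is one of deposited signals. Leaving out single arrays gave differences between 0.93 and 1.26, and the call was kept each time.

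Markers of other cells were read on the same arrays. The mean of the 15 acinar markers measured was 9.69 (8.80 to 10.5) in Pdx1-creLate islets and 9.07 (8.62 to 9.80) in control islets, with 0 of 15 called. The 6 duct markers averaged 6.75 (6.52 to 7.08) and 6.13 (5.97 to 6.23) in Pdx1-creLate and control islets, and 1 of them was called, Cftr, which encodes a chloride channel, at a log2 difference of 3.53, while the median difference of the 6 was -0.03. Stellate cell and fibroblast markers averaged 6.67 (6.58 to 6.81) in Pdx1-creLate islets and 6.93 (6.82 to 7.08) in control islets, with 2 of 12 lower. Endothelial markers averaged 7.86 (7.71 to 7.96) in Pdx1-creLate islets and 8.02 (7.83 to 8.19) in control islets, and 0 of 11 were called. Beta-cell markers averaged 11.1 (11.0 to 11.2) in Pdx1-creLate islets and 11.4 (11.4 to 11.4) in control islets, with 4 of 9 lower. Markers of the other islet endocrine cells averaged 9.7 (9.48 to 9.88) in Pdx1-creLate islets and 10.1 (9.97 to 10.3) in control islets, with 2 of 6 lower. Macrophage markers averaged 6.41 (6.29 to 6.47) and 6.25 (6.03 to 6.44) in Pdx1-creLate and control islets, with 1 of 10 higher, and 1 of 3 neural and Schwann cell markers was higher. With the acinar mean of each array as a covariate the Mgst1 difference was 1.23 (adjusted p = 0.000945). With the stromal and endothelial means as covariates it was 1.11, and its call ended (adjusted p = 0.129). The stromal means of Pdx1-creLate and control arrays did not overlap. That covariate therefore shares its variation with the groups, and a call lost with it cannot be assigned to either. The part of the duct, endocrine, macrophage and neural markers was not tested.

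Ldha encodes the A subunit of lactate dehydrogenase, which interconverts pyruvate and lactate, and Slc16a1 encodes the monocarboxylate transporter MCT1, which carries lactate and pyruvate across the plasma membrane. RefSeq gives 2 Ldha windows on chromosome 7 (plus strand, GRCm38.p6), Ldha being the second gene with separated groups. The first is shown because it holds matches, and the second, chr7:46846832-46847131, held 0 matches to any of the 3 motifs. Capitals mark ACGTG, the core of the hypoxia response element, on either strand.
Ldha, chr7:46845554-46845853: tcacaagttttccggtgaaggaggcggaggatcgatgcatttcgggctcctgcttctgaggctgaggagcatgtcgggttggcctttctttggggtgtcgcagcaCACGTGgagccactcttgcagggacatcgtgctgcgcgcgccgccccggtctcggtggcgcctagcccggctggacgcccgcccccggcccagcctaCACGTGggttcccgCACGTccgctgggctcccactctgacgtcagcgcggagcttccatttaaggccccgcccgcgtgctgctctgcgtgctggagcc
The first window held 5 matches when both strands were counted, since a palindromic stretch counts once on each strand and the matches there overlap. ACGTG was present in 19.6% of all windows.

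Ldha read 7.5, 7.5, 7.6 and 7.6 in Pdx1-creLate islets, against 8.0, 7.7, 7.8 and 8.0 in control islets. All transgenic arrays were below all control arrays, as for 5.43% of all genes. The log2 difference was -0.33 ± 0.10 (SE), and it missed the threshold by a small margin (limma adjusted p = 0.0591). It was called when the dimmest 25% of genes were left out (adjusted p = 0.0408), with centring on array medians (0.0483), with trend and robust variance estimates (0.0302), in 1 model of all 39 arrays (0.0488) and without control replicate 2 (0.0358). The Ldha difference stayed uncalled with quantile normalization (adjusted p = 0.0858), with the acinar covariate (0.11) and with the replicate block (0.0996). Adjusting for array spread, the SD over all probe sets of an array, also gave no call (0.237). With any other single array left out it was not called either (adjusted p = 0.0854 to 0.156). The stromal and endothelial covariates gave -0.16 (adjusted p = 0.69).

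Slc16a1 read 4.0, 3.7, 3.6 and 4.3 in Pdx1-creLate islets, against 4.4, 4.3, 4.3 and 4.2 in control islets. The groups overlapped through Pdx1-creLate replicate 4. The difference was -0.40 ± 0.13 (SE, limma adjusted p = 0.0992), and without that array it was -0.53 and called (adjusted p = 0.0137). The other left-out arrays gave -0.43 to -0.30 with no call, and the stromal and endothelial covariates gave -0.14 (adjusted p = 0.839).

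Cxcl12 encodes a chemokine that attracts leukocytes and progenitor cells, and Oat encodes the mitochondrial ornithine aminotransferase. Cxcl12 read 5.2, 5.0, 4.8 and 5.3 in Pdx1-creLate islets, against 5.3, 5.4, 5.4 and 5.4 in control islets. Its difference was -0.30 ± 0.11 (SE, limma adjusted p = 0.134), and it was called when 1 model held all 39 arrays (0.0475). With the array SD, taken over all probe sets of an array, as a covariate it was also called (-0.48, adjusted p = 0.0286). With the stromal and endothelial covariates it was -0.10 (adjusted p = 0.853). Oat went the other way, with 6.6, 6.1, 6.7 and 6.8 in Pdx1-creLate islets, against 6.2, 6.2, 5.9 and 6.3 in control islets. In 3 of 4 transgenic arrays it was above the highest control array. The Oat difference was 0.40 ± 0.14 (SE, limma adjusted p = 0.121), and without Pdx1-creLate replicate 2 it was 0.55 and called (adjusted p = 0.0125). The stromal and endothelial covariates also gave a call for Oat, at 0.83 (adjusted p = 0.0254).

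The other members had smaller differences, and their intervals all included 0. Hk2, a hexokinase with high affinity for glucose that binds mitochondria, differed by -0.05 (95% interval -0.29 to 0.19). Rest differed by -0.03 (-0.32 to 0.27), with a wider spread among the transgenic arrays (4.7, 5.4, 4.9 and 5.3) than among the controls (5.1, 5.0, 5.1 and 5.2). Igfbp4, a secreted protein that binds insulin-like growth factors, differed by -0.13 (-0.38 to 0.13). Acot7, a thioesterase that hydrolyses long-chain acyl-CoA, differed by -0.15 (-0.36 to 0.06). The median difference of the 10 genes was -0.09, beside -0.03 over all genes.

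**Figure D2:**
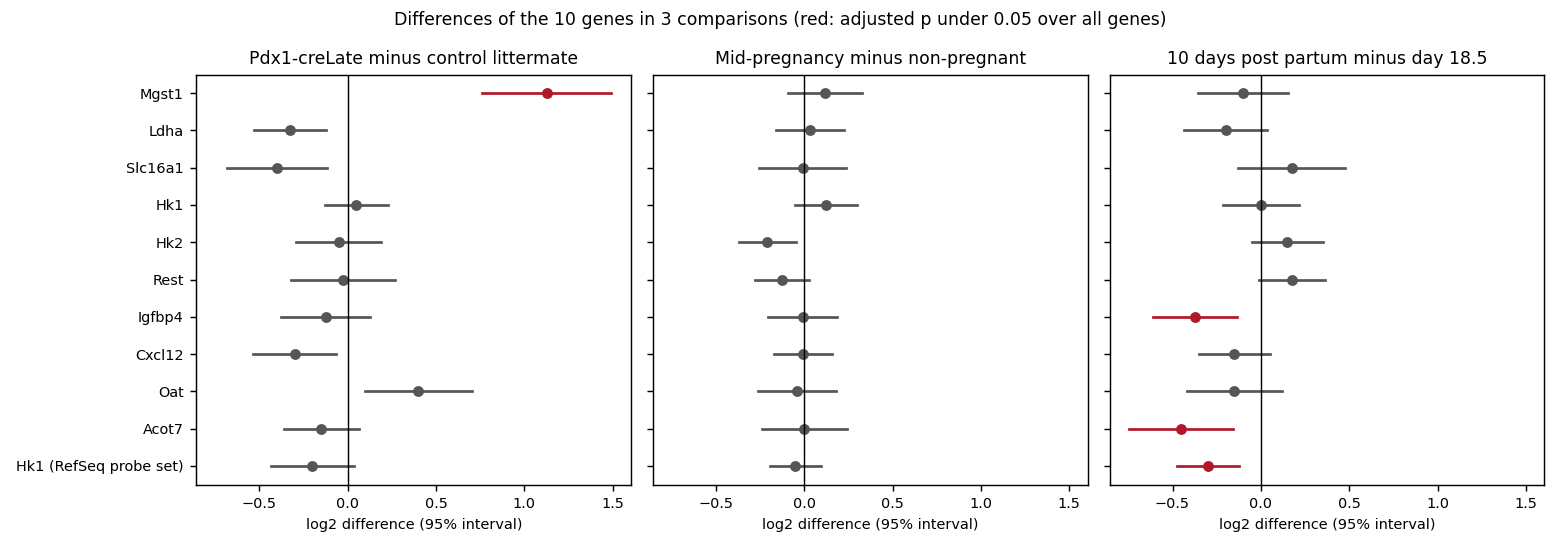
Log2 difference with its 95% interval (horizontal axis) for each gene (vertical axis) in 3 comparisons. Red marks an adjusted p under 0.05. Mgst1 at 1.13 is the called gene in the transgene comparison, none is called at mid-pregnancy, and Igfbp4, Acot7 and the RefSeq probe set of Hk1 are lower 10 days post partum than at day 18.5.

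Hk1, the ubiquitous high-affinity hexokinase, needs a separate account because its 2 probe sets went apart. The probe set that the rule of the highest mean selects averaged far up the scale of the array, at 11.3 to 11.9 on single arrays, and is annotated with an older mRNA record. That record was also listed for 16 of the 17 probe sets annotated with Rpl17, which encodes a ribosomal protein, and 16 of the 17 also listed Hk1. Over the 39 arrays the selected probe set correlated with those 17 probe sets at Pearson's r of 0.64 to 0.84. The other probe set carries the RefSeq transcripts of Hk1 and lists that older record too. It correlated with those 17 probe sets at -0.44 to -0.02, and with the selected one at -0.39. The genes nearest to the selected probe set were Rps6 (r = 0.77), Rpl9 (0.73) and Atp5md (0.69), and those nearest to the RefSeq probe set were Ndrg4 (0.85), Kcnh2 (0.83) and Tmem255b (0.83). The arrays share a laboratory and a normalization, so these coefficients describe likeness alone. Which transcript the selected probe set reads was not tested, and Hk1 values are given for both.

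**Figure D3:**
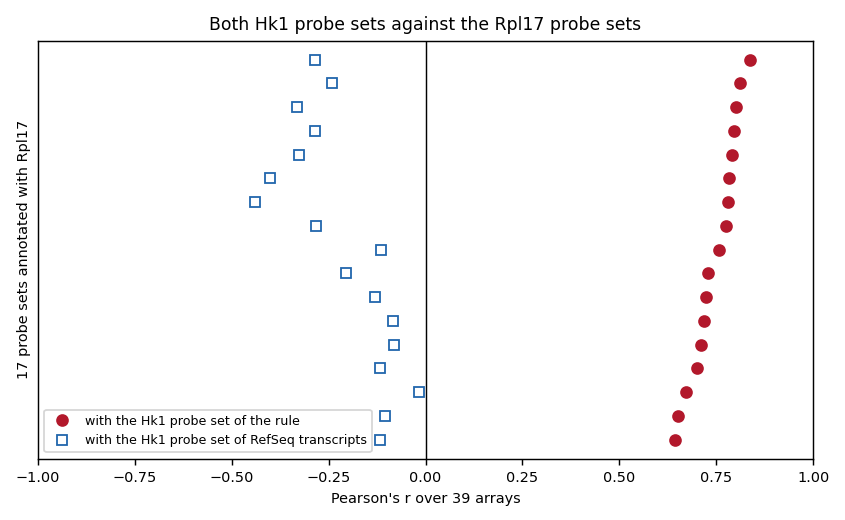
Pearson's r over 39 arrays (horizontal axis) of the 17 probe sets annotated with Rpl17 (vertical axis, 1 line each) with both Hk1 probe sets. Filled points, for the probe set selected by the rule, lie at 0.64 to 0.84, and open squares, for the RefSeq probe set, at -0.44 to -0.02.

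In Pdx1-creLate islets the selected Hk1 probe set read 11.9, 11.8, 11.9 and 11.9, against 11.9, 11.8, 11.8 and 11.8 in control islets, a difference of 0.05 (95% interval -0.13 to 0.23). The RefSeq probe set read 5.6, 5.9, 5.9 and 5.8 in Pdx1-creLate islets, against 5.9, 5.8, 6.2 and 6.1 in control islets. Its difference was -0.20 (-0.44 to 0.04, limma adjusted p = 0.359), and the groups overlapped.

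The genes around the members were read from lists. Of 13 genes of the insulin-like growth factor system, to which Igfbp4 belongs, 4 rose in Pdx1-creLate islets and 0 fell. They were Igfbp5, another binding protein (2.63), Igfals, which stabilises circulating growth factor complexes (0.95), Pappa, a protease that cleaves binding proteins (0.43), and Igf1r, the receptor (0.35). The list median was 0.13. Of 10 enzymes of ornithine, proline and arginine metabolism, the pathway of Oat, 2 rose, Odc1 of polyamine synthesis (0.70) and Aldh18a1 of proline and ornithine synthesis (0.50), and 2 fell, Arg1 (-0.55) and Glud1 (-0.40). Their list median was 0.03.

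Of 13 described targets of REST, 4 fell and 0 rose, with a list median of -0.23, beside 3.72% of all genes lower. Rest itself differed by -0.03. Beta-cell markers averaged 11.1 in Pdx1-creLate and 11.4 in control islets, and other endocrine markers 9.7 and 10.1. Whether the targets moved with Rest or with those markers was not tested. Gjd2, the connexin that couples beta cells electrically, fell by 0.75, Stmn2, a microtubule regulator, by 0.50, and the granule proteins Scg2 and Scg3 by 0.38 and 0.33. Of 8 REST cofactors 1 fell, Rcor2 (-0.35). Among 8 genes of glucose entry and phosphorylation the transporters Slc2a2 (-0.58) and Slc2a3 (-0.33) fell, among 11 later glycolytic genes the aldolase Aldoc (-0.60) fell, and of 14 genes of lactate and pyruvate handling Slc16a7, the transporter MCT2, fell (-0.45). Of 17 glutathione and antioxidant genes, Gstm1 alone was called (-0.45), so Mgst1 was not accompanied by called increases in that list. Acot12 was called among 12 acyl-CoA thioesterases (0.35). No gene was called among 12 hypoxia-inducible factor genes and targets, 5 Cxcl12 receptors and related genes, and 11 further genes described as low in beta cells, while 3748 of the 19938 genes had an unadjusted limma p under 0.05. Of these 19 called genes, 4 (Gjd2, Igfbp5, Igfals and Odc1) stayed called under every alternative and left-out array, and 15 lost the call with the stromal and endothelial covariates. The stromal mean separated the transgenic from the control arrays, so it shares its variation with the groups.

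The pregnancy groups ask how the same genes stand along gestation. All days share 1 set of 4 non-pregnant arrays, and the comparisons are therefore not independent of each other. None of the 10 genes rose on any day, and 2 fell on 1 day or more, Rest and Hk2. No member was called on day 3.5 (0.0451% of all genes), day 6.5 (0.622%), day 12.5 (5.27%) or day 15.5 (8.23%), nor over mid-pregnancy, the mean of days 9.5, 12.5 and 15.5 (9.24%). All genes at an unadjusted limma p under 0.05 numbered 4046, 2244, 2982, 4220 and 4010 in those comparisons. In all of them the arrays of each member overlapped with the non-pregnant ones, while groups did not overlap for 11.3% of all genes on day 3.5, 2.49% on day 6.5, 6.85% on day 12.5, 8.81% on day 15.5 and 2.74% over mid-pregnancy.

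Rest fell on day 9.5, when 19.4% of all genes were called and 7.74% were lower. It read 4.8, 4.7, 5.0 and 4.9 on day 9.5, against 5.1, 5.1, 5.3 and 5.4 in non-pregnant islets. All day 9.5 arrays were below all non-pregnant arrays, as for 4.37% of genes, and 13.3% did not overlap in either direction. The log2 difference was -0.38 ± 0.09 (SE), with a limma adjusted p of 0.0045. Along the series Rest averaged 5.23 ± 0.15 in non-pregnant islets, 5.10 ± 0.10 on day 3.5, 5.18 ± 0.17 on day 6.5, 4.85 ± 0.13 on day 9.5, 5.23 ± 0.10 on days 12.5 and 15.5, 5.05 ± 0.13 on day 18.5 and 5.23 ± 0.13 post partum (SD). Day 9.5 was the low point, with day 12.5 back at the non-pregnant mean. The day 9.5 mean lay below 4.93, the mean level under which the dimmest 25% of genes fell. Its signal over background is not known, so the difference is one of deposited signals.

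Rest was also the 1 member called by limma's moderated F-test, both for any day against non-pregnant islets (F = 4.58, adjusted p = 0.00967, beside 39.8% of all genes) and among the pregnancy days alone (F = 4.90, adjusted p = 0.0103, beside 38.6%). Both F-test calls ended with quantile normalization (adjusted p = 0.137 for any day and 0.126 among days), with centring (0.0927 and 0.0824) and with the array SD as a covariate (0.157 and 0.114). The day 9.5 call ended with quantile normalization (-0.26, adjusted p = 0.0501) and with the array SD as a covariate (-0.32, adjusted p = 0.179). The SD over all probe sets of an array was 2.07 to 2.11 on day 9.5 and 2.01 to 2.05 in non-pregnant islets, so the array spread moved with the groups. On day 9.5, Hdac1 (0.18) and Kdm1a (0.23) rose among 8 REST cofactors, and Syt4, a synaptotagmin (0.30), rose among 13 targets.

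Hk2 fell on days 9.5 and 18.5. It read 5.4, 5.2, 5.3 and 5.1 on day 9.5 and 5.1, 5.4, 5.3 and 5.1 on day 18.5, against 5.6, 5.4, 5.7 and 5.6 in non-pregnant islets. On both days the highest array met the lowest non-pregnant array at 5.4, and all the other arrays were separated. The differences were -0.33 ± 0.10 on day 9.5 (SE, limma adjusted p = 0.0204) and -0.35 ± 0.10 on day 18.5 (adjusted p = 0.0172), where 11.1% of all genes were called and 2.5% were lower. On the other days Hk2 was 0.15 to 0.24 below the non-pregnant mean without a call.

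The array SD on day 18.5 was 2.05 to 2.10, and on both days no array overlapped in SD with the non-pregnant ones, so the SD and the groups cannot be told apart. With the array SD as a covariate they were -0.07 (adjusted p = 0.866) on day 9.5 and -0.11 (0.659) on day 18.5. Quantile normalization gave -0.20 (0.153) and -0.26 (0.0678), and centring on medians -0.23 (0.0903) and -0.25 (0.0716), so both calls ended under all 3, and the day 18.5 call also ended with the stromal and endothelial covariates (-0.23, adjusted p = 0.28). Endothelial means did not overlap either, at 8.06 to 8.17 on day 18.5 and 7.84 to 8.05 in non-pregnant islets. That covariate and the groups therefore cannot be told apart. Single arrays decided both calls too. The day 9.5 call ended without day 9.5 replicate 4 (adjusted p = 0.0913) or non-pregnant replicate 3 (0.065) or 4 (0.058), and the day 18.5 call without day 18.5 replicate 1 (0.0741) or 4 (0.0763) or non-pregnant replicate 3 (0.0622). The F-test of Hk2 for any day had an adjusted p of 0.0539. On day 9.5 the same list held called increases of Slc2a1 (0.30), a glucose transporter, and G6pc2 (0.30), the islet glucose-6-phosphatase subunit, with 2 of 8 higher and 0 lower. Of the later glycolytic genes 3 of 11 rose, Pgk1 (0.40), Tpi1 (0.35) and Pfkp (0.35), and 5 of 14 genes of lactate and pyruvate handling rose, among them the pyruvate carrier subunit Mpc1 (0.45). Of all genes, 11.6% were called higher on that day. With the array SD as a covariate 23 of the 26 list genes called on day 9.5 lost the call, and Gsr, Igfals and Aldh18a1 kept it under every alternative.

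**Figure D4:**
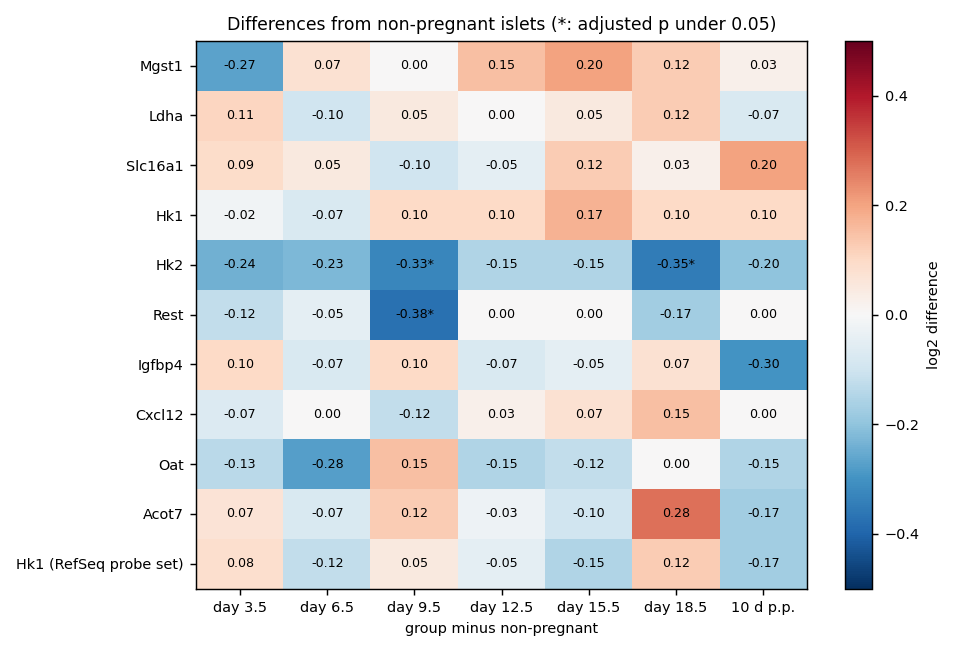
Log2 difference from non-pregnant islets (colour and printed value) of each gene (vertical axis) on the 6 pregnancy days and 10 days post partum (horizontal axis). Asterisks mark the 3 called differences, Hk2 and Rest on day 9.5 and Hk2 on day 18.5.

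Mgst1 stayed within 3.53 ± 0.15 on day 3.5 and 4.00 ± 0.08 on day 15.5 (SD, n = 3 and 4), with 3.80 ± 0.14 in non-pregnant islets. No day was called, and the F-tests missed the threshold (adjusted p = 0.083 for any day and 0.062 among days). The F-test for any day passed without day 9.5 replicate 1 (adjusted p = 0.0226), with quantile normalization (0.0407), with centring (0.0288) and with the array SD as a covariate (0.0229). The transgene difference of Mgst1 exceeded its mid-pregnancy difference, 0.12 (95% interval -0.09 to 0.32), by 1.01 ± 0.19 (SE, limma adjusted p = 0.000452). It was the 1 member called in that test of the difference itself, beside 5.48% of all genes. The pairs differ in strain background as well as in treatment. The pregnancy pair was female, while the labels used here give no sex for the transgenic pair. What background or sex adds cannot be told apart.

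Ldha averaged 7.93 to 8.15 over the pregnancy days and 8.03 ± 0.22 in non-pregnant islets, and no day was called. Slc16a1 averaged 3.98 to 4.2 over the days and 4.08 ± 0.10 in non-pregnant islets, with single arrays as far apart as 3.5 and 4.3 on day 9.5. Cxcl12 lay between 5.18 and 5.45 over the days and at 5.30 ± 0.08 in non-pregnant islets. Oat had its highest day mean on day 9.5 (6.45 ± 0.21) and its lowest on day 6.5 (6.03 ± 0.28), beside 6.30 ± 0.20 in non-pregnant islets, and neither day was called. The selected Hk1 probe set averaged 11.6 to 11.8 over the days. The RefSeq probe set averaged 6.10 to 6.38 over the days and 6.25 ± 0.17 in non-pregnant islets, and its F-test among days was called (F = 3.39, adjusted p = 0.0408), a call kept in 10 of the 23 fits that each left out 1 array. It also ended with the stromal and endothelial covariates (adjusted p = 0.18), the array SD (0.128), the acinar covariate (0.0671), all 39 arrays (0.0612) and trend and robust variance (0.0516).

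The step from late pregnancy across birth had a broad change behind it, with 30.2% of all genes called and 18.4% lower 10 days post partum than on day 18.5. Of the 10 genes 2 fell, Igfbp4 and Acot7, and none rose. Igfbp4 read 6.2, 6.1, 5.8 and 5.9 post partum, against 6.4, 6.4, 6.4 and 6.3 on day 18.5. Acot7 read 6.4, 6.5, 6.6 and 6.6 post partum, against 7.3, 6.8, 7.1 and 6.7 on day 18.5. Both were lower on every post partum array, as were 11.4% of all genes, and 17.4% did not overlap in either direction.

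The Igfbp4 difference was -0.38 ± 0.12 (SE, limma adjusted p = 0.0176), and that of Acot7 was -0.45 ± 0.14 (adjusted p = 0.0205). The RefSeq probe set of Hk1 also fell, with 6.1, 6.0, 6.1 and 6.1 post partum, against 6.5, 6.3, 6.5 and 6.2 on day 18.5, a difference of -0.30 ± 0.09 (adjusted p = 0.0114). The selected Hk1 probe set differed by 0.00 (95% interval -0.21 to 0.21). The Igfbp4 call ended without post partum replicate 3 (-0.31, adjusted p = 0.0513) or 4 (-0.34, 0.0576). The Acot7 call ended without day 18.5 replicate 1 (-0.34, adjusted p = 0.093) or 3 (-0.41, 0.0584), or post partum replicate 1 (-0.41, 0.0561).

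Marker means of vessels and connective tissue were lower post partum too. Endothelial markers averaged 7.67 (7.58 to 7.73) post partum and 8.11 (8.06 to 8.17) on day 18.5, and 11 of 11 were lower. Stellate cell and fibroblast markers averaged 6.82 (6.75 to 6.86) post partum and 7.22 (7.13 to 7.25) on day 18.5, and 7 of 12 were lower. With both means as covariates the differences were -0.12 for Igfbp4 (adjusted p = 0.907), -0.06 for Acot7 (0.973) and -0.16 for the RefSeq probe set of Hk1 (0.865), and 4 genes in all were called. The array SD was 2.00 to 2.04 post partum and 2.05 to 2.10 on day 18.5. With it as a covariate the 3 differences were -0.42 (adjusted p = 0.291), -0.39 (0.448) and -0.33 (0.24), and 24 genes in all were called. Neither the marker means nor the array SD overlapped between the groups. These covariates and the groups therefore cannot be told apart, and a call lost with them cannot be assigned to either.

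Several lists held called falls in this step, in which 18.4% of all genes were lower and 11.8% higher. No test set the lists against those shares. Of the 11 later glycolytic genes 7 fell, among them Pgam1 (-0.43), Aldoa (-0.40) and Tpi1 (-0.35), and none rose. Of 14 genes of lactate and pyruvate handling 7 fell, led by the pyruvate dehydrogenase kinase Pdk2 (-0.53) and Mpc1 (-0.38), and 2 rose, Ldhc (0.45) and the lactate exporter Slc16a3 (0.25). Of 8 REST cofactors 5 fell, led by the histone demethylase Kdm1a (-0.38) and Rcor3 (-0.35). Of the insulin-like growth factor genes Igfbp5 (-0.78) and Igfbp7 (-0.35) fell with Igfbp4, while Igfbp2 (0.48) and Pappa (0.25) rose. Of the 37 list genes called and followed through the alternatives, 37 lost the call with the stromal and endothelial covariates and 37 with the array SD.

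Set against non-pregnant islets, 10 days post partum, none of the 10 genes was called, beside 12.2% of all genes and 5389 genes at an unadjusted limma p under 0.05. Every member's arrays overlapped, while 9.4% of all genes had groups that did not. Igfbp4 came nearest, with 6.0 ± 0.18 post partum and 6.30 ± 0.24 in non-pregnant islets (SD). Its difference was -0.30 ± 0.12 (SE, adjusted p = 0.0883), and it was called without non-pregnant replicate 4 (-0.37, adjusted p = 0.043). Without non-pregnant replicate 2 it was -0.20 (adjusted p = 0.327), and with the stromal and endothelial covariates -0.0001 (adjusted p = 1). Endothelial means were 7.58 to 7.73 post partum and 7.84 to 8.05 in non-pregnant islets, and stromal means 6.75 to 6.86 and 7.04 to 7.38. Neither overlapped, so these covariates share their variation with the groups, and what they remove cannot be assigned to either. Hk2 averaged 5.38 ± 0.10 post partum and 5.58 ± 0.13 in non-pregnant islets, a difference of -0.20 (95% interval -0.40 to 0.00).

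Ordered by group mean, neighbouring groups were counted as apart where their means differed by more than the larger SD of the pair and no arrays overlapped. That held in 2 places, for Mgst1 between Pdx1-creLate islets (5.0) and the next group, day 15.5 (4.0), and for Ldha between the lowest group, Pdx1-creLate (7.55), and the one above it, control littermates (7.88). How many of all genes meet the same rule was not counted, so these 2 places are a description alone. The range of the 10 group means was 1.47 for Mgst1, wider than for all but 1.1% of genes. It was 0.65 for Acot7 (11.7% of genes wider), 0.60 for Ldha (15.4%) and 0.53 for Oat (24.2%), and 0.30 for the selected Hk1 probe set (77.1%). The median range of the 10 genes was 0.44 and that of all genes 0.41, and their median SD within groups was 0.17, beside 0.14.

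The genes whose levels ran most like each member over the 39 arrays differed between members. Mgst1 was most like Malrd1 (r = 0.88), Adarb2 (0.87) and Csf2rb (0.86). Ldha was most like Nsg1 (0.83), Tmem255b (0.80) and Ndrg4 (0.80), of which the last 2 were also nearest to the RefSeq probe set of Hk1. Acot7 was most like Chrna3 (0.85), Sncg (0.84) and Htr3a (0.84), and Igfbp4 most like Abca8a (0.78), Ndrg2 (0.76) and Bgn (0.76). Rest was most like Tmem44 (0.71), Hk2 like Mir129-1 (0.80), Oat like Rab3c (0.74), Cxcl12 like S1pr3 (0.70) and Slc16a1 like Smgc (0.65). Group differences and array spread enter these coefficients, so they are descriptions.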

How the data were processed

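Total RNA of islets was labelled and hybridized to Affymetrix Mouse Gene 1.0 ST arrays, per the labels' protocols. The deposited log2 values were made by the authors with RMA in Affymetrix Expression Console, per the submitters' processing notes; the version, and the set of arrays normalized as 1 batch, are not given in the sources used here. Of 35556 probe sets 21789 carried 1 symbol, 1621 several and 12146 none in the platform annotation. Per symbol the probe set of highest mean was kept, giving 19938 genes, and 999 of them had a choice. Positions and promoter windows are RefSeq's for GRCm38.p6; 9 of the 10 members had windows, 12 in all, and Rest is named only.

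Linear models of group means used R 4.3.3 and limma 3.58.1 (two-sided, Benjamini-Hochberg, threshold 0.05). The transgene comparison used its 8 arrays, the pregnancy comparisons 1 model of the 31 C57bl6/J arrays, and the test of the difference between both effects all 39 arrays. Python 3.11.15, pandas 2.3.3 and matplotlib 3.10.9 made tables and figures. The procedure was tested on simulated data. The labels call the arrays biological replicates but tie none to an animal, so p-values measure the spread between these samples.

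Members, lists, tests and alternatives were chosen with earlier results of these data known. All members were named whatever their result, with up to 4 called genes per list and comparison, in part, the 3 genes of highest r with each member, and Ins2. Same-numbered replicates were not paired, since in 0 of 45 pairs of groups did every same-numbered pair of arrays have an r over 0.1 (-0.34 to 0.31). The pairing r are not those of the deposited levels themselves, which correlated between arrays at 0.973 to 0.996. The alternatives were a filter on dim genes, quantile normalization, centring, trend and robust or weighted variance, other probe set choices, marker means or array SD as covariates, a replicate block, rounding noise, other sets of arrays in the fit and leaving out each array. Reading Hk1 from its RefSeq probe set was added after seeing the data.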

Additional observations from a re-analysis of the deposited data

Results flagged for a closer look

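The transgene and mid-pregnancy differences of Mgst1 were unlike each other, by 1.01 on the log2 scale in the limma test of that difference (adjusted p = 0.000452). It read higher in 4 of 4 Pdx1-creLate arrays than in any control array.

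Single arrays far from the others of their group were seen in 12 of 99 combinations of gene and group with 4 arrays, and chance alone gives about 1 such group in 20. With values carried to 1 decimal, 1 step of 0.1 is enough when the other 3 arrays are equal. Wider gaps were those of Mgst1 on day 9.5, with replicate 1 at 4.2 and the next at 3.7, of Oat in non-pregnant islets, with replicate 4 at 6.0 and the others at 6.4, and of Ldha and Cxcl12 on day 18.5, with arrays at 8.0 and 5.6 beside 8.2 and 5.4. The others were Ldha on day 6.5 (8.0), Slc16a1 post partum (4.2), the selected Hk1 probe set in Pdx1-creLate (11.8) and control islets (11.9), Igfbp4 on day 18.5 (6.3), Cxcl12 in control islets (5.3) and the RefSeq probe set of Hk1 on day 6.5 (6.2) and post partum (6.0).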

How the results depend on the processing

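Counted here were the 27 member differences and F values with an unadjusted limma p under 0.05 in the main fit. Of their 790 recomputed values, 699 stayed on the same side of the threshold in the same direction. Another 51 lost a call, 40 gained one and 0 changed sign. Calls gained by other member results are not among the 40. Results without a call that stayed without one are among the 699, and only results with a call can lose it. F values have no sign, so direction was checked for the differences alone. Leaving aside single arrays, the number of members called in Pdx1-creLate islets (1) became 2 with centring (adding Ldha), with trend and robust variance (Ldha) and with the array SD as a covariate (Cxcl12), and 3 with all 39 arrays in 1 model. Without the dimmest genes, which leaves out Mgst1, and with the stromal and endothelial covariates, the 1 member was another, Ldha and Oat. On day 9.5 the count of 2 became 0 with quantile normalization, 1 with centring and 0 with the array SD. On day 18.5 the count of 1 became 0 with quantile normalization, centring, the stromal covariates and the array SD. Post partum against non-pregnant islets, 0 became 1 with the array SD (Hk2). Across birth, 2 became 4 with centring (adding Ldha and Cxcl12) and 0 with the stromal covariates or the array SD. The test of the difference between both effects gave 0 without the dimmest genes. The F-test for any day gave 2 without the dimmest genes and with array weights. That among days gave 3 with centring and with the stromal covariates, and 2 with array weights, the second-highest probe set and the RefSeq probe set of Hk1.

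Leaving out single arrays gave counts of 1 to 2 for the transgene, 1 to 2 on day 9.5, 0 to 1 on day 18.5, 0 to 1 post partum against non-pregnant islets, 1 to 2 across birth, 1 to 2 for the difference between effects, 1 to 4 for any day and 1 to 3 among days. With the replicate block the counts of members were 1 for the transgene, 2 on day 9.5, 1 on day 18.5 and 2 across birth, as without it, and all genes called numbered 934 for the transgene.

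All genes called ranged from 482 (stromal covariates) through 768 (array SD) to 2484 (all arrays), beside 1313, for the transgene, from 0 to 321, beside 9, on day 3.5, from 45 to 221, beside 124, on day 6.5, and from 627 (array SD) to 4587, beside 3864, on day 9.5. They ranged from 696 to 1399, beside 1051, on day 12.5, from 1015 to 2329, beside 1641, on day 15.5, from 862 (array SD) to 3214, beside 2210, on day 18.5, and from 475 (stromal covariates) to 3363, beside 2441, post partum against non-pregnant islets. Across birth they ranged from 4 (stromal covariates) and 24 (array SD) to 7788, beside 6014. The F-tests gave as few as 4631 (any day, beside 7940) and 4569 (among days, beside 7697), both with the stromal covariates.

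Of 5057 recomputed values of 206 list gene differences, 833 lost a call and 4 changed sign. These were Stmn2 (0.28), Glud1 (0.0574), Bnip3 (0.0563) and Epas1 (0.11) across birth, all with the stromal covariates and none called. The array SD and the marker means follow the groups in that step, so these covariates and the groups share their variation. For the transgene the stromal mean did not overlap between the groups either, and the same limit applies to it there. It also applies to both marker means post partum against non-pregnant islets, and to the endothelial mean on day 18.5. Signal over background limits Mgst1 and Slc16a1, which were among the dimmest 25% of genes. It also limits Rest on day 9.5, where the mean of 4.85 lay below the cut of 4.93 for those genes.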

Other observations

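Along pregnancy the insulin-like growth factor binding protein gene Igfbp5 rose further from the non-pregnant level, by log2 differences of 0.68 on day 9.5, 1.03 on day 12.5, 1.25 on day 15.5 and 1.95 on day 18.5, and it stood at 1.18 post partum (limma adjusted p of 3.78e-07 there). In Pdx1-creLate islets it rose by 2.63 over control littermates, and that exceeded its mid-pregnancy difference by 1.64 (adjusted p = 3.61e-08). Igfbp4, by contrast, was called on none of these days and not in Pdx1-creLate islets. The comparisons with non-pregnant islets share their arrays.

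Odc1, the rate-limiting enzyme of polyamine synthesis from ornithine, rose by 0.58 on day 9.5, 0.60 on day 12.5, 0.48 on day 15.5 and 0.60 on day 18.5, and by 0.70 in Pdx1-creLate islets over control littermates. Oat, which removes ornithine, was called in none of these comparisons. Gjd2, a described target of REST, fell by 0.35 on day 15.5 and by 0.30 on day 18.5, and by 0.75 in Pdx1-creLate islets, while Rest was called on day 9.5 alone. A link between Gjd2 and Rest was not tested.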
